A study of Mus musculus with 2 samples.

Results

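Annotated multi-exon transcripts of 6000 nt or more were examined in long-read RNA sequencing of mouse gastrocnemius, the large calf muscle. A transcript was taken when the deposited tables classed it as known, gave it more than 1 exon and a length of at least 6000 nt, and it was no spike-in. This gave 963 transcripts of 885 genes, out of 17296 annotated multi-exon transcripts with a read and out of 4081 annotated multi-exon transcripts of that length. They are called long models here. Of the 963, 947 are annotated as protein coding.

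The tissue came from male B6CASTF1/J mice, the F1 cross of C57BL/6J and CAST/EiJ, at 25 days of age. There was 1 group with 2 biological replicates and 2 µg of RNA per library. The labels name separate animals for the replicates but point to a single donor record, so the spread between the libraries may be partly technical. The deposited tables summed to 1292409 reads for replicate 1 and 1703457 for replicate 2, with 1215785 and 1549606 in annotated genes. Levels are CPM, the reads scaled to 1000000 reads in annotated genes. Where no read was counted, a level of up to 2.47 CPM (replicate 1) or 1.94 CPM (replicate 2) remained possible. The markers of muscle fibres summed to 336406 and 204578 CPM. Atp2a1, at 151516 and 23536 CPM, differed most between the libraries and was left out for that reason. The other 5 then summed to 184890 and 181041 CPM, but not each was level. Myh4 stood at 23867 and 9831 CPM, Mylpf at 19005 and 31911 CPM and Tnnt3 at 1964 and 3915 CPM. Acta1 and Ckm lay closer, at 71337 and 65981 CPM and at 68718 and 69403 CPM. Markers of immune cells summed to 69.9 and 65.2 CPM with Ptprc at 0, and those of adipocytes to 18.9 and 20.0 CPM with Lep at 0. Those of Schwann cells summed to 149 and 500 CPM, with Sox10 alone lower in replicate 2, at 3.29 and 0 CPM. Those of endothelial cells summed to 69.1 and 65.8 CPM. Among them Egfl7 stood at 25.5 and 45.2 CPM, while Pecam1, Cdh5, Kdr and Tie1 were each lower in replicate 2. Those of satellite cells summed to 51.0 and 26.5 CPM. With 1 group no condition could be compared, and each test below compares these 2 libraries.

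A messenger RNA can be long because its coding sequence is long, as in the giant proteins of the sarcomere, or because a long untranslated stretch follows the stop codon in the last exon. In long-read data a read is assigned to an annotated transcript when it carries the whole chain of introns of that transcript. Its outer ends need not reach the annotated start and end, so the length of a long model is the length in the annotation and not that of its reads. Reads that carry only part of the chain are classed as incomplete splice matches, and unspliced or partly spliced reads over a gene as genomic.

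The internal exons, all but the first and the last, are thus the least that a read must span. To show where that span ends, 30 bases around the last exon junction of 7 models are given 5′ to 3′ from the M21 transcript sequences, with the first 15 bases of the last exon in capitals. All lie in coding sequence, and the coordinates are of the mm10 build.
Myh1-203: caagctgaggaagcgGAGGAACAATCCAAT
Myh2-203: caagctgaggaggctGAGGAACAATCCAAC
Myh4-201: caggctgaggaggctGAGGAACAATCCAAT
Cacna1s-204: atgctgatccaggagGCTCTGGTTCGAGGA
Timm17a-201: cacagtttcccaatgGCCCTCAGTTCACTG
Glo1-206: agaagcctgatgacgGGAAAATGAAAGGAC
Mrpl17-202: gacttctggctcacaGAGAAGGACTTGATC

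Beyond the capitals the models part ways. In Myh1-203, the 2X myosin heavy chain, the last exon is exon 40 at chr11:67224317-67224575 on the plus strand, 259 nt with 150 nt of coding sequence. Myh2-203 (2A chain, chr11:67197236-67197517) and Myh4-201 (2B chain, chr11:67260188-67260446) end in exons of 282 nt and 259 nt. Cacna1s-204, the voltage sensor of excitation-contraction coupling, ends in 574 nt at chr1:136118957-136119530. The last exon of Timm17a-201, a subunit of the mitochondrial inner membrane translocase, covers 6791 nt at chr1:135295213-135302003 on the minus strand, with only 83 nt of coding sequence. Glo1-206, the methylglyoxal-clearing enzyme glyoxalase 1, ends in 9291 nt at chr17:30584936-30594226, and Mrpl17-202, a protein of the large mitochondrial ribosomal subunit, in 6939 nt at chr7:105803206-105810144, both on the minus strand. A read of Mrpl17-202 need span only 69 nt of internal exon, and a read of Myh1-203 needs 5749 nt.

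The myosin junctions are close copies of one another. The 30 bases of Myh1-203 differ from those of Myh2-203 at 3 positions and from those of Myh4-201 at 3, and Myh2-203 and Myh4-201 differ at 2. Over whole transcripts, 28.7% of the 30-base runs of Myh1-203 also occur in Myh2-203, 19.9% in Myh4-201 and 0.595% in Myh7-201. No source used here says how reads were divided between such paralogues, and their separate counts carry that uncertainty.

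Most long models were long through their last exon. The median long model had 17 exons and 7142 nt, with 2901 nt of coding sequence and 3956 nt of 3′ untranslated sequence. The last exon made up more than 50% of the length in 582 models (60.4%), and the internal exons in 329 (34.2%). Internal exons came to under 3000 nt in 560 models and to 3000 nt or more in 403, called short-chain and long-chain models below. Coding sequences of 6000 nt or more were found in 121. Of the 428 models with reads in both libraries 72.0% had a last exon above 50% of their length, against 48.9% of the 499 found in replicate 1 alone and 83.3% of the 36 found in replicate 2 alone. The annotated transcripts of this length without a read stood at 48.6%.

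The polyadenylation hexamer AATAAA, searched on the transcript strand in the last 40 bases of the annotated sequence, occurred in 69.1% of the long models. It occurred in 53.0% of the 3118 annotated transcripts of this length without a read, in 54.2% of shorter annotated multi-exon transcripts with a read that had a sequence, and in 29.7% of all annotated multi-exon transcripts with a sequence. With ATTAAA counted as well the share among the long models was 81.1%. These are matches of letters at annotated ends, which the reads need not have reached.

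**Figure D1:**
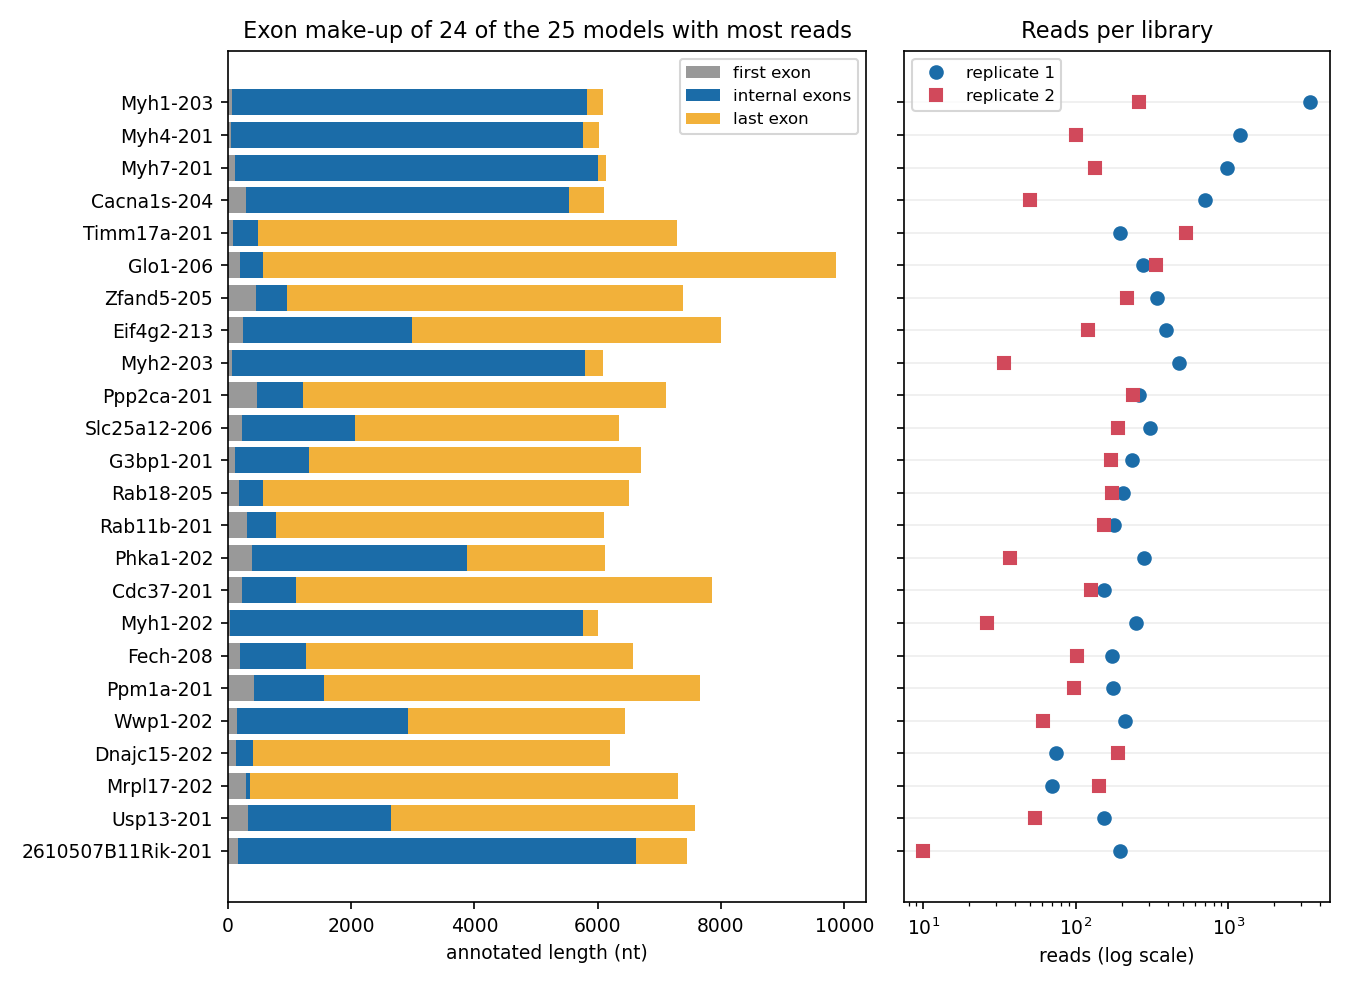
Left, stacked bars of the annotated length in nt of the first exon, the internal exons and the last exon for 24 of the 25 long models with most reads; right, reads per model on a log scale in replicate 1 (circles) and replicate 2 (squares). Models built of internal exons, from Myh1-203 with 3446 and 261 reads to 2610507B11Rik-201 with 195 and 10, lie far apart between the libraries, while among models built of a last exon some lie close together, such as Glo1-206 with 274 and 335, and others do not, such as Eif4g2-213 with 392 and 120.

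Replicate 1 found 927 long models and replicate 2 found 464, although replicate 2 was the deeper library. Of all 963, 44.4% were found in both (95% Clopper-Pearson interval 41.3 to 47.6), against 63.6% of the shorter annotated multi-exon transcripts. The 2 directions differed: 46.2% of the models of replicate 1 recurred in replicate 2 (42.9 to 49.4), and 92.2% of those of replicate 2 recurred in replicate 1 (89.4 to 94.5). For shorter transcripts the same shares were 75.1% and 80.7%. Those just below the limit lay closer to the long models. Transcripts of 5000 to under 6000 nt had 51.9% in both libraries, and 55.2% and 89.6% in the 2 directions. For 4000 to under 5000 nt the 2 directions stood at 63.5% and 93.4%. Low counts were common, with 260 long models resting on 1 read in all and 687 on fewer than 10.

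Recurrence was set beside shorter transcripts with as many reads. Of long models with 5 to 9 reads in replicate 1, 54.8% had a read in replicate 2 (46.9 to 62.4), against 89.2% of shorter transcripts with 5 to 9 reads (87.8 to 90.5). With 10 to 19 reads the shares were 79.6% (70.3 to 87.1) and 97.3% (96.4 to 98.0). Short-chain models with 10 to 19 reads recurred in 91.4% of cases (81.0 to 97.1) and long-chain models in 62.5% (45.8 to 77.3), with intervals that do not overlap. With 20 or more reads 100% of short-chain models (96.5 to 100) and 94.4% of long-chain models (81.3 to 99.3) recurred. In the other direction 83.1% of long models with a single read in replicate 2 had reads in replicate 1, against 49.2% of shorter ones. These intervals take the models as independent trials, although all share the same 2 libraries. They do not measure the spread between libraries. Reads without molecular identifiers also need not be independent molecules.

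**Figure D2:**
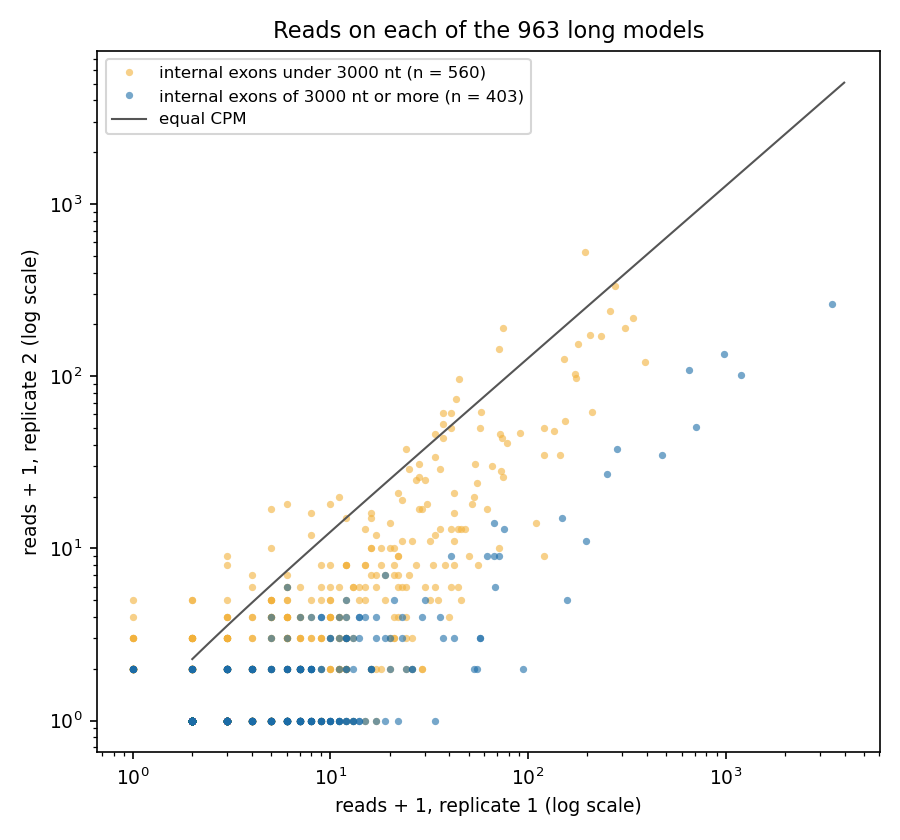
Reads plus 1 on each of the 963 long models in replicate 1 (x axis) and replicate 2 (y axis), both on log scales, with short-chain and long-chain models in separate colours and a line of equal CPM. Most points lie below the line; short-chain models approach or pass it (Timm17a-201, 194 and 525 reads), and no long-chain model with 100 or more reads in replicate 1 comes near it.

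Long models took 20129 of the 777335 reads on annotated multi-exon transcripts in replicate 1, a share of 2.59% (95% Clopper-Pearson interval 2.55 to 2.63), and 6384 of 1045368 in replicate 2, a share of 0.611% (0.596 to 0.626). The mean was 1.60% ± 1.40 (SD, n = 2). Long-chain models summed to 9068 and 654 CPM in the replicates, a 13.9-fold difference. Short-chain models summed to 7488 and 3465 CPM, a 2.16-fold difference. The 9 models of sarcomeric myosin heavy chains held 32.3% of all long-model reads in replicate 1 and 8.91% in replicate 2, and without them the shares of annotated multi-exon reads were 1.75% and 0.556%. The gap was not a steady function of annotated length. Models of 6000 to under 8000 nt summed to 4.42 times as many CPM in replicate 1 as in replicate 2. Those of 8000 nt or more summed to 2.65 times as many, and shorter transcripts of 5000 to under 6000 nt to 5.21 times as many.

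The 10 leading long models differed between the libraries, with only 3 shared. In replicate 1 they included Myh1-203, Myh4-201, Myh7-201, Cacna1s-204, Myh2-203, Eif4g2-213, Zfand5-205, Slc25a12-206 and Phka1-202, and 3 of the 10 are short-chain models. In replicate 2 they were Timm17a-201, Glo1-206, Myh1-203, Ppp2ca-201, Zfand5-205, Dnajc15-202, Slc25a12-206, Rab18-205, G3bp1-201 and Rab11b-201, of which 9 are. The 25 leading models over both libraries held 57.5% of long-model reads in replicate 1 and 57.1% in replicate 2.

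For each of the 6853 annotated multi-exon transcripts with 10 or more reads in all, the level was tested between the libraries (Fisher's exact test, two-sided). Calls were made at 0.05 after Benjamini-Hochberg adjustment over all 6853. The test called 45.9% of them, 13.4% higher in replicate 2 and 32.5% lower. The 276 long models tested gave 4 higher calls, 201 lower calls and 71 that did not pass; the 687 others had too few reads. Their median log2 ratio of CPM + 1, replicate 2 over replicate 1, was -2.01, against -0.45 over all transcripts tested. With the 22 long models that had no read in replicate 2 set at the limit for a count of 0, their median was -1.86. The 246 tested transcripts of 5000 to under 6000 nt had a median of -1.75. Of these 64.6% were called lower, against 72.8% of the long models. The test takes account of counting error alone. In edgeR's exact test with an assumed biological coefficient of variation of 0.4, which called 0.511% of all transcripts tested, 16 long models were lower and none was higher; 15 of the 16 were long-chain models and the other was Igfbp5-201, the insulin-like growth factor binding protein 5. Fewer cells of a type and less RNA per cell cannot be told apart in such bulk levels.

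The ratio was lower the longer the internal exons were. The median log2 ratio was -0.59 in the 47 tested models with under 500 nt of internal exons, -1.19 in the 44 with 500 to under 1000 nt, -1.61 in the 36 with 1000 to under 1500 nt, -2.10 in the 67 with 1500 to under 3000 nt, -3.04 in the 66 with 3000 to under 6000 nt and -3.39 in the 16 with 6000 nt or more. With counts of 0 in replicate 2 set at their limit the last pair of medians became -2.62 and -2.62, so the step between these classes rests on models without a read there. The share called lower was 36.2% in the first of these classes and 100% in the last, beside 32.5% of all transcripts tested. With 3000 to under 6000 nt of internal exons it was 92.4% for long models and 91.8% for shorter annotated transcripts. With under 500 nt the shorter ones stood at 11.6%. Spearman's rho of the log2 ratio over the 276 models was -0.64 with the internal length, -0.70 with the coding length, -0.54 with the number of exons, 0.60 with the length of the last exon and 0.16 with total length. These are descriptions across models, which share 2 libraries and are not independent. Shorter annotated transcripts had medians of 0.45, -0.27, -0.84, -1.60 and -2.72 in the first 5 internal classes, so in these 5 classes the long models had the lower median. In the last of the 5 the gap was narrow, at -2.62 and -2.50 with counts of 0 set at their limit in both sets.

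**Figure D3:**
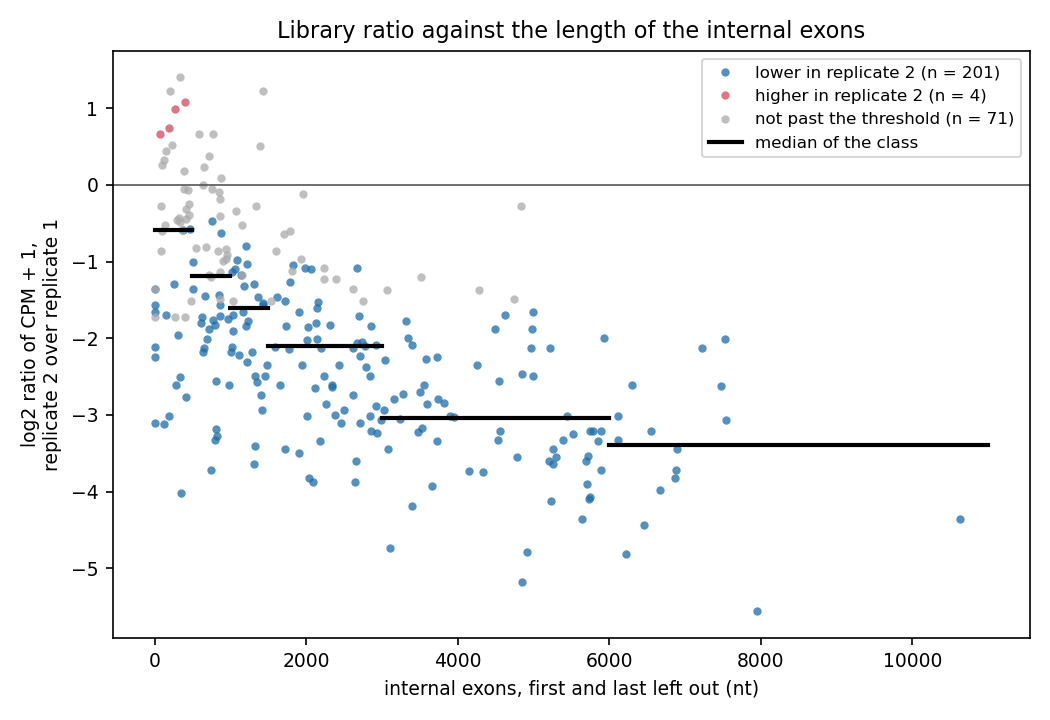
Log2 ratio of CPM + 1, replicate 2 over replicate 1, against the summed length in nt of the internal exons for the 276 long models tested; colours give the call and black bars the median of each internal class. The medians run from -0.59 to -3.39, and the 4 models higher in replicate 2 all have under 500 nt of internal exons.

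Thick filament models led replicate 1. Myosin heavy chains are the motors of the thick filament, and the isoform sets the speed of the fibre. Myh1-203 (chr11:67200052-67224575, 40 exons) had 3446 reads in replicate 1 and 261 in replicate 2, or 2834 and 168 CPM, a log2 ratio of -4.06. Myh4-201 had 1193 and 100 reads, a log2 ratio of -3.91, and Myh7-201, the slow chain, 983 and 134, a log2 ratio of -3.21. Myh2-203 had 476 and 34 reads, with a log2 ratio of -4.10. All 4 are chains of 39 to 41 exons with at least 5706 nt of internal exons, and all were lower in replicate 2. The developmental chains were almost unread, Myh3-202 with 7 reads and Myh8-201 with 2, all in replicate 1, and Myh7b-201 had 1 read there. Of the 9 models of this list 6 were tested and 6 were lower.

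Myh1 and Myh2 each had a second long model with 39 exons in place of 40 and the same 30 bases at the last junction. Myh1-202 (6012 nt) had 249 and 26 reads. Myh1-203 (6081 nt) thus held 93.3% of the long-model reads of Myh1 in replicate 1 (95% Clopper-Pearson interval 92.4 to 94.0) and 90.9% in replicate 2 (87.0 to 94.0). Myh2-201 had 147 and 14 reads, and Myh2-203 held 76.4% (72.9 to 79.7) and 70.8% (55.9 to 83.0) of the long-model reads of Myh2. More than 1 long model was found in 64 genes, 53 of them with 2. In all 10 such genes with 10 or more long-model reads in each library, the intervals of the leading model's share overlapped between the libraries, which describes the counting error and is no test of the difference.

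Calcium handling and excitation genes followed. Cacna1s-204 had 705 reads in replicate 1 and 50 in replicate 2, a log2 ratio of -4.13. It was lower in replicate 2, as were both models of the 7 in this list with enough reads to test. Kcnc1-201, a potassium channel whose 2 exons hold no internal part, had 1 read in each library. Scn4a-201, the sodium channel of the muscle action potential, had 1 read in replicate 1.

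In the Z-disc and thin filament list Synpo2-201, the actin-bundling Z-disc protein synaptopodin 2, had 119 and 34 reads on 2 exons, with a log2 ratio of -2.11. Flnc-202, the muscle filamin, had 22 and 2 on 47 exons, with a log2 ratio of -3.06. Both models tested were lower, of 5 found. Among the 8 models of the membrane skeleton and adhesion all 4 tested were lower. Sptb-201, beta-spectrin, had 25 reads in replicate 1 and 1 in replicate 2, Dysf-204, the membrane repair protein dysferlin, 15 and 1, and Tln1-201, the integrin-binding talin, 10 and 2. The call of Tln1-201 was lost with TMM and DESeq2 scaling.

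The 14 extracellular matrix models had 372 reads in replicate 1 and 14 in replicate 2, or 306 and 9.03 CPM. All 8 tested were lower, with a median log2 ratio of -3.86, or -2.56 with the 3 models unread in replicate 2 at their limit. Col4a1-201 and Col4a2-201, the chains of basement membrane collagen, had 157 and 54 reads in replicate 1 and 4 and 1 in replicate 2. Lamc1-201, a laminin chain of the same membrane, had 67 and 5, Nid1-201, its linker nidogen, 21 and 0, and Fn1-203, fibronectin, 18 and 0. The markers of fibroblasts, 5 of 5 detected, summed to 4144 and 729 CPM in the replicates, with Col1a1 at 2448 and 279 CPM and Pdgfra at 4.11 and 4.52 CPM. Their part in this result was not tested.

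Fuel use and growth signalling had 13 models, of which 9 were tested, 7 were lower and 2 did not pass. The calls of Acacb-202, of an acetyl-CoA carboxylase, and Irs2-201, of an insulin receptor substrate, were lost with both TMM and DESeq2 scaling, which left 5 lower. Phka1-202, the muscle regulatory subunit of phosphorylase kinase, had 281 and 37 reads, a log2 ratio of -3.22. Prkaa2-201, a catalytic subunit of AMP-activated kinase, had 45 and 4, and Irs1-201, an adaptor of the insulin receptor, 43 and 5. The 2 that did not pass were Igf1-202, the growth factor, with 6 and 5 reads (Fisher's exact test as above, adjusted p = 0.672), and Ppargc1a-203, a coactivator of mitochondrial genes, with 9 and 4 (adjusted p = 0.16 in the same test).

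In protein turnover all 4 of 10 models tested were lower. Usp13-201, a deubiquitinase, had 153 and 54 reads, Fbxo32-201, the atrophy-linked ubiquitin ligase subunit atrogin-1, 72 and 27, Usp24-201 16 and 2, and Psme4-201, a proteasome activator, 13 and 0. Motors and trafficking had 11 models, 2 of them tested and both lower: Kif5b-201, a kinesin heavy chain, with 144 and 34 reads, and Myo18b-201, an unconventional myosin of striated muscle, with 93 and 1. Transcription, chromatin and splicing had 13 models on 54 reads in all. Its tested models were Foxo1-201, with 20 and 3 reads, and Mef2c-201, with 14 and 0, transcription factors that were both lower.

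Over the 9 lists, 39 of 90 models were tested, 37 were lower, none was higher and 2 did not pass. Over all transcripts tested 32.5% were lower and 13.4% higher. Of tested shorter transcripts with 3000 to under 6000 nt of internal exons 91.8% were lower, and with 1500 to under 3000 nt 70.3%. A high share lower was thus not particular to the lists. With TMM or DESeq2 scaling 34 of the 39 list models were lower and none was higher. The shares called over all transcripts with these scalings were not taken, so this count has no background beside it. The most negative log2 ratios past the threshold were those of Myo18b-201 at -5.56, Col4a1-201 at -5.18, Snrnp200-201 at -4.81 (a spliceosomal helicase, 33 and 0 reads), Col4a2-201 at -4.79 and Hipk3-201 at -4.73 (a protein kinase, 52 and 1 reads). The 5 models with the largest ratios have 44, 52, 45, 48 and 16 exons. The ratio of Snrnp200-201 depends on the pseudocount. Against the limit of 1.94 CPM, its 27.1 CPM in replicate 1 were at least 14.0-fold higher. By the same measure Nid1-201 was at least 8.92-fold higher in replicate 1, Fn1-203 at least 7.65-fold and Mef2c-201 at least 5.95-fold.

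The 4 models higher in replicate 2 were of another build. Timm17a-201 had 194 reads in replicate 1 and 525 in replicate 2, or 160 and 339 CPM, a log2 ratio of 1.08 (adjusted p = 1.55e-19 by the same Fisher's exact test). Dnajc15-202, a co-chaperone of the mitochondrial inner membrane, had 74 and 189 reads, a log2 ratio of 0.99. Mrps25-203, of the small mitochondrial ribosomal subunit, had 44 and 95, a ratio of 0.74 on the log2 scale. Mrpl17-202 had 70 and 142, or 0.66 on that scale (adjusted p = 0.00458 in the same test). Their internal exons came to 404, 274, 195 and 69 nt, and their last exons to between 5684 and 6939 nt. None of the 4 was called with the assumed coefficient of variation of 0.4.

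Other leading short-chain models lay between these extremes. Glo1-206 had 274 and 335 reads, or 221 ± 6.49 CPM (SD, n = 2), and did not pass the Fisher exact test (adjusted p = 0.733). With TMM or DESeq2 scaling of the libraries it was called higher in replicate 2, at log2 ratios of 0.46 and 0.29. Ppp2ca-201, the catalytic subunit of protein phosphatase 2A, had 259 and 238 reads, a log2 ratio of -0.47. Rab18-205 and Rab11b-201, small GTPases of membrane traffic, had 205 and 173 reads and 178 and 152 reads, with log2 ratios of -0.59 and -0.57. Cdc37-201, the kinase co-chaperone of Hsp90, had 152 and 125, a log2 ratio of -0.63. These 4 were called lower, but with either of the other scalings none of them passed. The log2 ratio of Ppp2ca-201 became 0.05 with TMM scaling and -0.12 with DESeq2 size factors.

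Other short-chain models among the 25 leading ones had larger gaps. G3bp1-201, a stress granule protein with 1206 nt of internal exons, had 234 and 171 reads and was lower, though not with TMM scaling (log2 ratio -0.28). Fech-208, the enzyme of the last step of haem synthesis, had 172 and 102. Ppm1a-201, a protein phosphatase, had 174 and 97. Slc25a12-206, the mitochondrial aspartate-glutamate carrier with 1823 nt, had 308 and 189. Zfand5-205, a ubiquitin-binding protein, had 340 and 216 on 502 nt. Wwp1-202, a ubiquitin ligase, and Eif4g2-213, a translation initiation factor, with 2774 and 2741 nt of internal exons, had 209 and 61 and 392 and 120 reads, log2 ratios of -2.10 and -2.04. Of the 25 leading models 21 were lower in replicate 2, 3 were higher and Glo1-206 did not pass. With TMM scaling 16 were lower, 4 were higher and 5 did not pass, with no share over all transcripts taken for that scaling.

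The share of a gene's reads that its long models held was taken over reads of all classes. Genes entered through a long-model read in either library, with 499 models found in replicate 1 alone and 36 in replicate 2 alone. The set thus favours larger shares in replicate 1. In the 320 genes with 20 or more reads in replicate 1 the median was 42.9%, and in the 225 such genes of replicate 2 it was 9.09%, a mean of 26.0% ± 23.9 (SD, n = 2). No long-model read was found in 7 of the 320 genes in replicate 1 and in 54 of the 225 in replicate 2. Of 197 genes with 20 or more reads in each library, 182 had the larger share in replicate 1 and 15 in replicate 2. Pearson's r between the libraries over these genes was 0.83, a description, since the genes share the 2 libraries. Where the leading model had under 500 nt of internal exons the medians were 71.9% (37 genes) and 59.7% (34 genes). Where it had 6000 nt or more they were 18.2% (37 genes) and 0.864% (24 genes).

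The remaining reads fell into different classes. For genes whose leading model was long-chain, incomplete splice matches held 55.9% of reads in replicate 1 and 76.0% in replicate 2, and long models 20.9% and 3.52%. For genes whose leading model was short-chain, incomplete matches held 12.3% and 11.6%, long models 50.4% and 44.4%, and genomic reads 8.65% and 27.1%. With incomplete and genomic reads left out, 86 genes had 20 or more reads in each library, and their median shares were 87.4% and 84.5%, larger in replicate 1 in 53 genes and in replicate 2 in 32. For the 12 of them led by a long-chain model the medians were 50.4% and 53.1%, with the larger share in replicate 1 in 11.

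**Figure D4:**
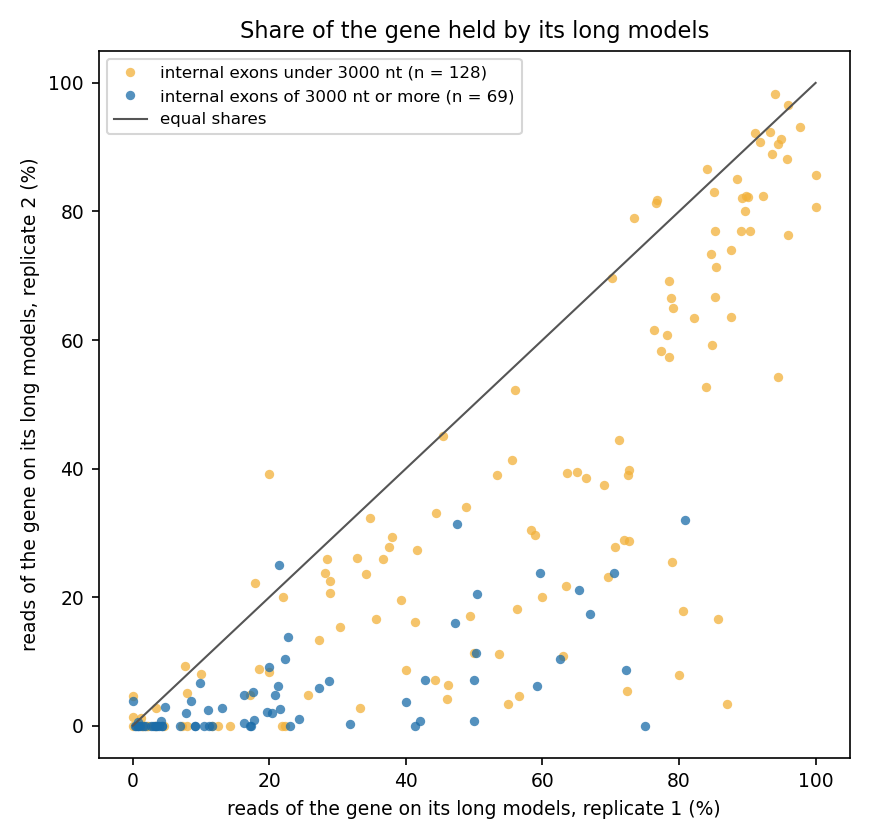
Percent of the reads of a gene on its long models in replicate 1 (x axis) and replicate 2 (y axis) for 197 genes with 20 or more reads in each library, coloured by the internal exons of the leading model; the line marks equal shares. Genes above 80% in both libraries are led by short-chain models, and 182 genes lie below the line.

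Named genes show the range. Mrpl17, Rab18 and Mrps25 had the highest shares on the mean of the libraries: 95.9% and 96.6% for Mrpl17, 94.0% and 98.3% for Rab18, and 97.8% and 93.1% for Mrps25. Dnajc15, Tmem167 and Ppp1r7, the last a regulator of protein phosphatase 1, came next, with 94.9% and 91.3%, 93.3% and 92.4%, and 100% and 85.7%. For Timm17a the shares were 91.1% and 92.3%. Each of these genes has a leading model with under 1000 nt of internal exons.

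Of the 69 genes led by a long-chain model with 20 or more reads in each library, 67 had the smaller share in replicate 2. The exceptions were Smarca4, with 12 of 56 and 5 of 20 reads on its long models, and Cux1, with 0 and 1 read. The entry of genes through a read in either library bears on this count too. Among long-chain-led genes with 20 or more reads in the library, 1 of 127 in replicate 1 and 31 of 75 in replicate 2 had no long-model read. Myh7-201 held 80.8% of Myh7 reads in replicate 1 (95% Clopper-Pearson interval 78.5 to 83.0) and 32.1% in replicate 2 (27.6 to 36.8). For Cacna1s-204 the shares were 72.0% and 8.74%, with 246 of 979 and 515 of 572 reads in incomplete matches. Myh1-203 held 55.7% and 21.6% of Myh1 reads. Myh4 stood apart, since Myh4-201 held 4.11% and 0.656% of 29017 and 15234 reads, with 72.1% and 91.2% in incomplete matches. The reads outside Myh4-201 were not all on short models. Unannotated spliced models of 6000 nt or more, incomplete matches among them, held 11741 and 773 reads of Myh4. Other annotated transcripts of the gene held 6109 and 455.

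The 6 lowest shares were those of Pde4dip, Plec, Myo18a, Xirp2, Scn4a and Ecpas, each with 1 to 3 reads on the long model in replicate 1 and none in replicate 2. Plec, the cytoskeletal cross-linker plectin, had 1 of 351 reads on Plec-201 and 0 of 165. Pde4dip, the anchoring protein myomegalin, had 1 of 1705 and 0 of 403.

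Whether reads with the last junction of a long model ran to its annotated end could be looked at only in unannotated spliced models, whose ends the deposited annotation gives. No source used here says how those ends were set, and the same end recurs in many models, so these values describe models, not reads. At the last acceptor of long models with a last exon of 3000 nt or more, the last exons of unannotated models had a median of 39.6% of the annotated length in replicate 1 (1918 pairs of model and long model) and 15.9% in replicate 2 (939 pairs). They reached 90% of it in 30.2% and 8.73% of pairs. Where the annotated last exon was under 1000 nt, 97.2% and 97.3% reached 90%.

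Single genes show how far these ends lay from the annotated one. The 6 and 11 unannotated models at the last acceptor of Timm17a-201 ended at most 766 and 188 nt into a last exon of 6791 nt. Those of Glo1-206 ended at most 2719 and 1361 nt into 9291 nt, and those of Pnpla8-201, a phospholipase, at most 2109 and 1019 nt into 11208 nt. At Myh4-201 the 462 and 154 such models had a median last exon of 259 nt in each library, the annotated length.

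**Figure D5:**
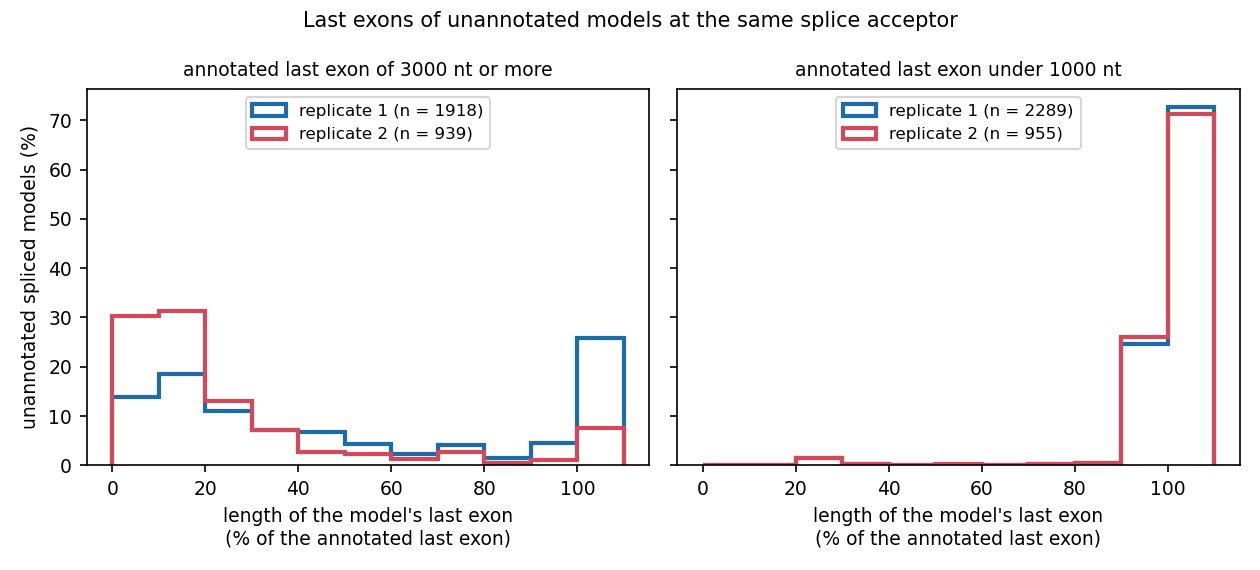
Percent of pairs of an unannotated spliced model and a long model with the same last splice acceptor (y axis). The x axis gives the unannotated model's last exon as a percent of the annotated one (values of 100 and above in the last bin). The left panel has long models with an annotated last exon of 3000 nt or more, the right those under 1000 nt. A model at an acceptor shared by several long models is counted in each pair. On the left replicate 2 piles up below 20% and replicate 1 has a second peak at 100%; on the right both libraries end at the annotated length.

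Some of the longest genes of muscle had no read on a long model. Of the 228 genes in the 9 lists 140 have an annotated multi-exon transcript of 6000 nt or more, 75 had a read on one and 65 did not. Ttn, the giant spring protein titin, had 438 and 326 reads and Ryr1, the calcium release channel, 962 and 721, yet no long model of either was read. Neb, nebulin, had 209 and 186 reads. Their longest annotated transcripts have 106824, 15358 and 22489 nt. Dmd, dystrophin, had 15 and 4 reads.

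Unannotated spliced models of 6000 nt or more were found for these genes, 49 and 3 for Ryr1, 60 and 7 for Neb and 29 and 4 for Ttn in replicates 1 and 2. The longest spliced unannotated model of Ryr1 had 104 exons and 15342 nt in replicate 1, and 84 exons and 12608 nt in replicate 2. For Neb these were 117 exons and 18032 nt, and 89 exons and 12902 nt. For Ttn they were 24 exons and 15974 nt, and 11 exons and 10781 nt. Each of the 6 models rests on 1 read. Over all genes 6.16% of 46365 unannotated spliced models had 6000 nt or more in replicate 1 (95% Clopper-Pearson interval 5.95 to 6.39) and 1.07% of 37462 in replicate 2 (0.971 to 1.18).

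The longest annotated models read were long mostly by their last exon. D10Wsu102e-201 has 123179 nt, of which 122802 nt are its last exon, and had 6 and 2 reads. D1Ertd622e-201 has 40378 nt and had 5 and 5, and Hnrnpr-207, of an RNA-binding protein, has 21452 nt and had 4 and 4. Gm37494-202, a lincRNA of 16021 nt, had 3 and 0, Tmem245-201 15 and 1, Ago3-201, an Argonaute protein, 1 and 1, Smg1-201, the kinase of nonsense-mediated decay, 1 and 0, and Serbp1-201 36 and 43. Of these 8 models Smg1-201 alone has more than 3000 nt of internal exons.

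The models with most exons were read mainly in replicate 1. Herc2-201, a giant ubiquitin ligase of 93 exons, had 2 reads and Dync1h1-201, the dynein heavy chain of 77 exons, had 2, none of them in replicate 2. Vps13a-201, a lipid transfer protein of 72 exons, had 1 and 0, and Usp24-201, with 68 exons, 16 and 2. Col5a3-201 and Col11a1-201, collagen chains of 67 exons, had 10 and 1 and 4 and 0. Fbn1-201, fibrillin 1, and Col5a1-201, with 66 exons each, had 8 and 0 and 12 and 0.

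The 36 models found in replicate 2 alone had at most 4 reads, and 30 of them rested on 1. Sesn3-204, a stress-response sestrin, had 4. Around the length limit, Tmem106b-201 (6002 nt), Xpo1-202 (6004 nt) and Igfbp5-201 (6006 nt) lay just inside, with 31 and 10, 12 and 0, and 120 and 8 reads. Nucks1-201 (5998 nt), Gnb4-205 (5997 nt) and Satb1-211 (5993 nt) lay just outside, with 9 and 3, 11 and 4, and 32 and 2.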

How the data were processed

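Long-read RNA sequencing gave 1 table of whole-number read counts per transcript model and 1 transcript annotation for each of 2 libraries. Per the file headers and the README deposited beside them, the authors' counts rest on mm10 and GENCODE M21, and they are not normalised. The aligner, read filters, strand use and the setting of model ends were not given in the sources used here.

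Spike-ins were left out. CPM use reads in annotated genes. Internal exons are all but the first and last. Annotated multi-exon transcripts with at least 10 reads in all were tested between the libraries with Fisher's exact test (two-sided, SciPy 1.17.1, Benjamini-Hochberg adjusted), which was tested on simulated data. The simulated counts held counting error alone, so they cannot show how the test behaves with added spread between libraries. Log2 ratios use CPM + 1, which understates ratios of low models. Intervals are exact 95% Clopper-Pearson, and a count of 0 is given an upper limit of 3 counts. Sequences come from the M21 transcripts, where all 963 models had a sequence of the stated length.

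The members, gene lists and tests were chosen with earlier results of these data known. The text names the 25 long models with most reads, up to 5 per list, the 8 longest and 8 with most exons, the 5 largest ratios each way past the threshold (only 4 were higher), the 6 highest and 6 lowest gene shares, 3 models on each side of 6000 nt and up to 5 genes with several long models. Some models that meet this rule appear only in counts or are not reported here. Outside it, Igf1-202, Ppargc1a-203, Acacb-202, Irs2-201, Smarca4, Cux1, Sesn3-204, Pnpla8-201, Scn4a-201, Myh3-202, Myh8-201, Myh7b-201 and the genes without a long-model read were named after their values were seen. Alternatives were other length, read and gene minimums, another denominator, TMM scaling and an assumed coefficient of variation of 0.4 (edgeR 4.0.16), DESeq2 1.42.0 size factors, pseudocounts of 0.1 and 10 CPM, and 1 library left out. With 1 group no paired or blocked fit could be made.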

Additional observations from a re-analysis of the deposited data

How the results depend on the processing

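The 34 alternatives covered 7 results. Only the median log2 ratio could change sign, and it stayed negative under each of its alternatives. The other results are counts or percentages, which cannot change sign. For the 2 shares given as means, a move was counted only beyond the wide spread between the libraries, so settings counted as unmoved could still differ by much. A length minimum of 5000 nt gave 1726 models, 47.7% of them in both libraries, a mean share of 3.36% of annotated multi-exon reads and 1119 models with under 3000 nt of internal exons. A minimum of 8000 nt gave 293 models, a mean share of 0.263%, 164 with under 3000 nt of internal exons and 51 called between the libraries. Asking for 2 reads gave 703 models, 60.9% of them in both libraries. With incomplete and genomic reads left out the mean share of the gene was 80.4%. The medians were 76.5% in replicate 1 and 84.4% in replicate 2, so the order of the libraries turned. With all reads they were 42.9% and 9.09%. Each median covers the genes with 20 or more reads left in that library. Over the 86 genes with as many in each library, replicate 1 kept the larger median, 87.4% against 84.5%. The 205 calls became 134 with a minimum of 20 reads, where 170 models were tested, and to 16 with the assumed coefficient of variation of 0.4. TMM scaling gave 150 lower and 10 higher calls and DESeq2 size factors 157 and 9; the median log2 ratio was then -1.58 and -1.72, with all transcripts tested at 0.04 and -0.12, against -0.45 before. Of the 82 long-chain models 66 were lower with either scaling, and of the 194 short-chain models 84 and 91 were lower. The shares called over all transcripts were not taken with either scaling or with the minimum of 20 reads. Those counts of calls thus have no background beside them. A pseudocount of 10 CPM moved the median to -0.87. Leaving out a library gave 464 to 927 models, a share of annotated multi-exon reads of 0.611% to 2.59% and a share of the gene of 9.09% to 42.9%. Leaving out the myosin models, an alternative chosen after seeing the data, gave a mean share of 1.15%. No paired analysis was possible because there is 1 group. With 3 reads or fewer in each library, 494 of the 963 models carry a level too imprecise to compare, and the cause of the difference between the libraries was not tested.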
